A study of Mus musculus with 6 samples.

Results

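Mediator is the multi-subunit coactivator that carries signals from DNA-bound transcription factors to RNA polymerase II. Its core is built from a head and a middle module around the scaffold subunit Med14, and a tail module takes up most contacts with activators. A kinase module of Cdk8 or Cdk19, cyclin C, Med12 or Med12l and Med13 or Med13l binds the core reversibly, and Med12 activates the kinase through cyclin C. The Mediator kinase is known to phosphorylate transcription factors, and the kinase module can keep the core from engaging the polymerase. The expression of the 33 mouse genes that encode these subunits is described here, out of 54532 genes in the deposited count table. The genes were taken by symbol, and the group was selected on the rise of Med12 in ruxolitinib-treated mice against controls. All differences between these groups are therefore given as descriptions. Where a member is said to be called, or not called, this states on which side of an adjusted p of 0.05 it fell in the fit over all genes, and it is not evidence for the choice of the group.

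The 6 RNA libraries hold marrow cells that were retained by CD8 microbeads, from CByB6F1 females (F1 hybrids) of 2 to 5 months. Every animal in both groups had bone marrow failure (BMF in the labels), modelled here as an immune attack on the marrow. Ruxolitinib pools 1, 2 and 3 came from animals that received this JAK1 and JAK2 inhibitor, and control pools 4, 5 and 6 from untreated animals with the same disease. Each pool combined 2 to 3 mice of one group. The sources used here do not give the dose or duration. The libraries held 13829808 to 17708196 counted reads. Levels are CPM, counts scaled to the library total after TMM scaling, which sets the libraries to a common level over most genes, and differences are log2 fold changes, ruxolitinib over control, ± SE.

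The pools differed in cell type markers. Of 18 CD8 T cell identity genes, 16 were called lower and none higher in the ruxolitinib pools (adjusted p under 0.05), and their summed level was 1948 to 5563 CPM there against 10724 to 13117 CPM in controls. All 14 measured erythroid genes (summed 126769 to 247795 against 1881 to 2711 CPM) and all 15 monocyte and macrophage genes (9116 to 14900 against 1176 to 1597 CPM) were called higher. The same call was made for 10 of 12 neutrophil genes (9330 to 21907 against 1596 to 6188 CPM), 10 of 11 B cell genes (1061 to 1650 against 207 to 268 CPM) and 6 of 7 stromal and endothelial genes (119 to 165 against 32.7 to 39.7 CPM). Of 10 dendritic cell genes, 6 were called higher and 2 lower (84.1 to 91.8 against 54.4 to 73.6 CPM). Genes with 0 counts in all control pools included Ms4a1, Pax5 and Igll1 of the B cell list, Siglech and Flt3 of the dendritic list and Emcn of the endothelial list. The part of this shift in the Mediator values below was not tested. In bulk RNA, fewer cells of a type and less RNA per cell cannot be told apart.

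Of the 33 genes, 32 passed the filter on low counts. In the ruxolitinib pools 6 of these 32 were called higher, beside 29.9% of all 13480 genes tested, and 8 were called lower, beside 25.3%. The 6 were Med12, Med13l, Med26, Med15, Med19 and Med13. The 8 were Med30, Med28, Med27, Med11, Med31, Med14, Med20 and Ccnc. The groups did not overlap in CPM for 20 of the 32 genes, against 66% of all genes tested. The median log2 fold change was -0.07 over the 32 genes and 0.03 over all genes tested, and 9 of the 32 (28.1%) differed by more than 2-fold, against 45.8% of all genes. Since the group was chosen on this contrast, nothing is read from these counts. The 8 became 5 without ruxolitinib pool 1, without ruxolitinib pool 2 or without control pool 5, each time through Med14, Med20 and Ccnc.

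The scale decides the sign of the lower values. When libraries were scaled to the CD8 T cell identity genes in place of TMM, all 32 tested members had positive values, from 0.08 (Med30) to 6.12 (Med12). The median of all genes moved to 1.95 and that of the members to 1.90, with 24 members called higher and 0 lower. Every statement below that a member was lower refers to TMM scaling and turned to a positive value under this one. Over all genes tested, 68.7% were then called higher and 0.519% lower. Shares within the complex do not depend on this choice.

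**Figure D1:**
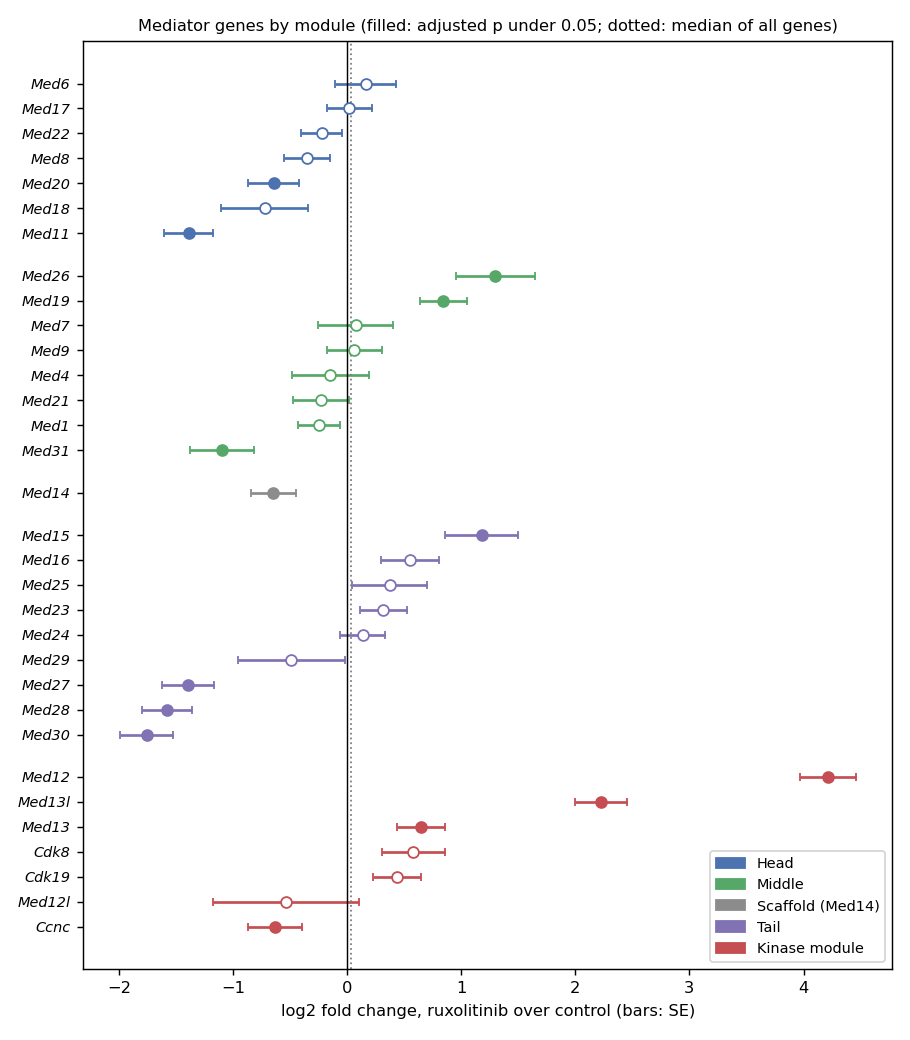
Log2 fold change (ruxolitinib over control, TMM scaling, bars SE) of the 32 tested Mediator genes, grouped by module, with filled points for adjusted p under 0.05 and a dotted line at the median of all genes tested. Med12 (4.21) and Med13l (2.23) lie to the right of every other member, and Med30 (-1.76) and Med28 (-1.58) lie farthest left; under scaling to CD8 T cell genes all 32 values are positive.

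Med12, on chrX:101274030-101297465 (mm10, plus strand, position as deposited), had 56.8, 46.1 and 56.4 CPM in ruxolitinib pools 1, 2 and 3. In control pools 4, 5 and 6 it had 3.27, 2.36 and 2.93 CPM, from 59, 36 and 47 reads. The 3 ruxolitinib pools lie close together, the 3 controls lie close together, and nothing falls between them. This is a log2 fold change of 4.21 ± 0.24, or 18.5-fold, and 639 of the 13480 genes tested (4.74%) had a value at least as high. The value stayed between 4.10 and 4.33 when any single pool was left out. Measured per kilobase of the deposited gene length, Med12 stood at 0.370 CPM per kilobase in controls, place 31 of the 33 Mediator genes, and at 6.89 in the ruxolitinib pools, place 13. In controls it thus stood between Med13l (0.768, place 30) and Med12l (0.060, place 32), and below most other Mediator genes. Its ruxolitinib level lies among those of the other members.

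**Figure D2:**
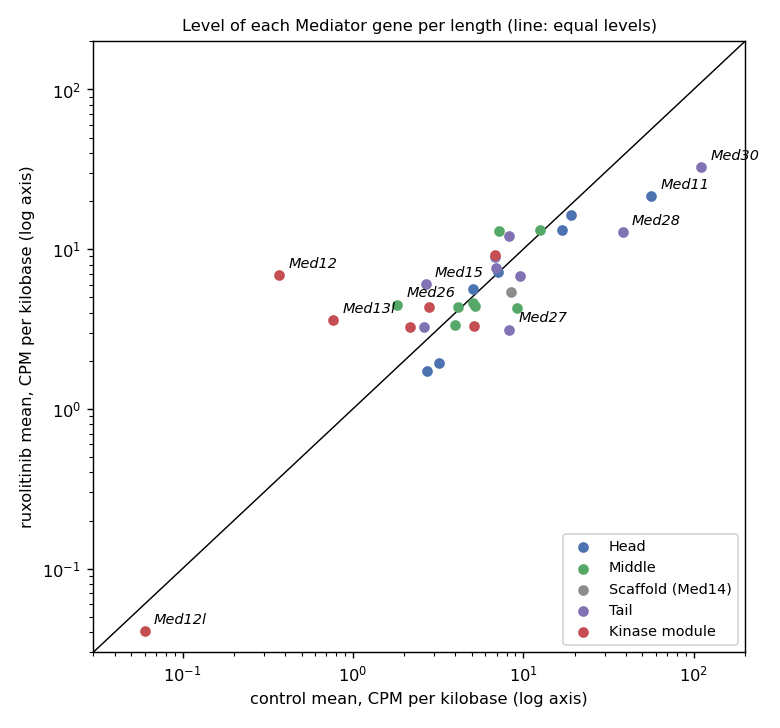
Mean level of each of the 32 tested Mediator genes per kilobase of gene length in controls (horizontal, CPM per kilobase, log axis) and in ruxolitinib pools (vertical, same unit, log axis), with a line of equal levels. Med12 lies far above the line, at 0.370 in controls and 6.89 in ruxolitinib pools, while Med30, Med28 and Med11 lie below it at the upper end on the TMM scale.

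The genes beside Med12 did not share its pattern. Il2rg, the nearest tested gene on one side, encodes the common gamma chain of cytokine receptors and had 83.7 ± 36.1 CPM in ruxolitinib pools and 279.8 ± 119.9 CPM in controls (-1.74 ± 0.40). Zmym3, a zinc finger gene and the nearest tested gene on the other side, had 22.2 ± 2.86 and 23.1 ± 1.06 CPM (-0.05 ± 0.20). Of the exonic bases of Med12, 9.72% are shared with Gm21986, a transcript on the same strand that had 0.73 ± 0.06 CPM in ruxolitinib pools and 0.24 ± 0.14 CPM in controls. The sources used here do not say how reads in shared bases were counted, or whether strand was used, so reads of overlapping genes cannot be told apart.

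The 189 to 250 bases before the start of Med12 and Med13l, the members with the largest rises, and of Med28, the member with the second largest fall and an entry in the promoter table, are shown to let their base composition be compared. They come from RefSeq (GRCm38.p6), run 5′ to 3′ on the plus strand and end where the deposited gene begins: chrX:101273841-101274029 for Med12, chr5:118560469-118560678 for Med13l and chr5:45519979-45520228 for Med28. Capitals mark the only match to the motifs named after them.
Med12: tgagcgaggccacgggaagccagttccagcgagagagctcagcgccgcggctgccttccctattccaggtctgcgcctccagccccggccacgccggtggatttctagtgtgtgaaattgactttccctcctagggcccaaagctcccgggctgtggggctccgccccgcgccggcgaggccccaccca
Med13l: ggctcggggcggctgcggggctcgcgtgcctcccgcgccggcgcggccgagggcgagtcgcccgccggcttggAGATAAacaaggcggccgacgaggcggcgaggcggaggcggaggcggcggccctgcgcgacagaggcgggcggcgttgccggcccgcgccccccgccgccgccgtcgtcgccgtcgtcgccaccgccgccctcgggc
Med28: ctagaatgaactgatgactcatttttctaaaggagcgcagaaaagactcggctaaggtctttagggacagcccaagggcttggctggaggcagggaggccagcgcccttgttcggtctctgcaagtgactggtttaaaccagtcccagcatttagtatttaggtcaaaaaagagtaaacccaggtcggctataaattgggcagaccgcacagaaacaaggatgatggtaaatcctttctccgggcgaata

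The full windows of 300 bases, from 250 before to 50 after the RefSeq start, held 27 CpG sites in Med12, 61 in Med13l and 12 in Med28. Of the 33 genes, 28 had a window, 32 windows in all, with a median of 20 CpG sites against 7 over all 32851 windows of the table. The median was 27 (11 to 61) in the 7 windows of members called higher, 13.5 (3 to 34) in the 8 windows of members called lower and 22 (8 to 35) in the 15 windows of members not called. Some windows lie inside the deposited gene, with 0 bases before its start. These are both Med15 windows, the Med27 window with 3 CpG sites, the Med10 window with 20 and those of Med1, Med12l and Med25. On both strands, 2 of the 32 windows (Med29 and Med31) held the STAT motif TTCNNNGAA, against 8.30% of all windows, and 1 (Med19) held GAAANNGAA, the core of the interferon response element, against 8.56%. The ETS motif CCGGAAG was in 9 windows (28.1%, against 8.86%), the NRF1 core GCATGCGC in 4 (12.5%, against 2.71%) and the GATA motif AGATAA in 4 (12.5%, against 11.2%). Both CCGGAAG and GCATGCGC contain a CpG site, and the windows of members held more of these. The part of this in the motif shares was not tested. None of the 5 motifs was in the Med12 or Med28 window, and Med13l held AGATAA. Genes with more than 1 RefSeq start count once per window, and the paired windows of Med15, one of the ETS and NRF1 genes, overlap each other.

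The kinase module held the members with the largest rises. Med13 and Med13l are alternative subunits that link the kinase to the core. Med13l had 65.4, 57.6 and 43.7 CPM in ruxolitinib pools 1 to 3 and 11.6, 10.7 and 13.3 CPM in control pools 4 to 6. Even its lowest ruxolitinib pool is over 3 times its highest control pool (2.23 ± 0.23, 4.68-fold). Med13 had 57.4, 40.8 and 43.8 CPM against 30.1, 26.8 and 33.9 CPM (0.65 ± 0.21), and the groups do not overlap. Med13 was no longer called without ruxolitinib pool 1 (0.51), control pool 4 (0.65) or control pool 5 (0.57), or with offsets for gene length (0.07). An antisense gene, Brip1os, shares 7.38% of the exonic bases of Med13 and had 60.0 ± 3.95 CPM in ruxolitinib pools and 60.0 ± 16.7 CPM in controls.

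Cdk8 and Cdk19 are the alternative kinases, and cyclin C, from Ccnc, is their shared partner. Cdk19 had 60.4, 53.0 and 47.8 CPM in ruxolitinib pools and 31.8, 42.5 and 44.9 CPM in controls. Its groups do not overlap, by a small gap (0.43 ± 0.21, not called). Cdk8 had 33.1, 36.3 and 26.1 CPM against 16.9, 16.7 and 30.1 CPM (0.58 ± 0.28, not called), and control pool 6 lies among the ruxolitinib pools. Without control pool 6 both were called higher, Cdk8 at 0.90 and Cdk19 at 0.52. With offsets for gene length Cdk8 was at 0.02 and Cdk19 at 0.15, neither of them called. Ccnc went the other way, with 15.9, 15.7 and 19.2 CPM in ruxolitinib pools and 24.3, 21.3 and 32.95 CPM in controls (-0.63 ± 0.24). Its groups do not overlap, but the call was lost without ruxolitinib pool 1 (-0.56) or 2 (-0.58), without control pool 4 (-0.68), 5 (-0.75) or 6 (-0.44), with RLE (-0.63) or upper-quartile (-0.62) factors and with GC offsets (-0.52). Tstd3, on the opposite strand, shares 5.40% of the exonic bases of Ccnc and was also lower (-1.18 ± 0.23).

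Med12l, the paralogue of Med12, was close to absent in both groups. It had 0.59, 0.15 and 0.82 CPM in ruxolitinib pools and 0.72, 0.59 and 1.00 CPM in controls, from 2 to 16 reads per library (-0.54 ± 0.64, not called). Igsf10, on the opposite strand, shares 15.3% of its exonic bases and had 0 to 2 reads per library.

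**Figure D3:**
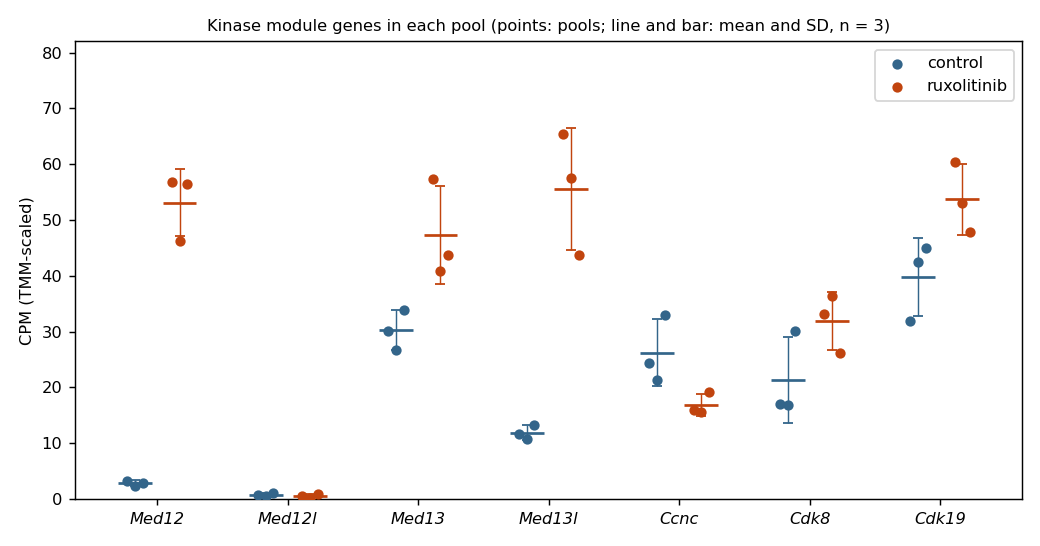
CPM (TMM-scaled) of the 7 kinase module genes in each of the 6 pools, as points, with the mean and SD of each group (n = 3). The ruxolitinib pools lie between 46.1 and 56.8 CPM for Med12, against 2.36 to 3.27 CPM in controls, while for Cdk8 control pool 6 (30.1 CPM) overlaps the ruxolitinib pools; Ccnc is lower with ruxolitinib on this scale and turns to 1.20 under scaling to CD8 T cell genes.

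Within each pair of paralogues the balance can be read as a share per kilobase. Such shares do not depend on scaling between libraries. Cdk19 made up 75.5%, 71.0% and 75.5% of the Cdk8 and Cdk19 level in ruxolitinib pools 1 to 3 and 76.0%, 81.0% and 71.5% in control pools 4 to 6. These pools overlap, at 74.0% ± 2.56 against 76.2% ± 4.78 (SD, n = 3). Med13l made up 44.5%, 49.8% and 41.2% of the Med13 and Med13l level in ruxolitinib pools and 21.3%, 21.9% and 21.6% in controls. All ruxolitinib pools lie above all controls, and the controls differ by less than 1 percentage point. Med12l was 0.62%, 0.20% and 0.87% of its pair in ruxolitinib pools and 11.7%, 13.1% and 17.05% in controls, a difference that comes with the level of Med12. Cdk8 and Cdk19 are closely related in sequence, and the handling of reads that match both is not stated, so their split is uncertain.

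Med14, the scaffold that joins the modules, lies on chrX like Med12 and had 49.9, 40.3 and 52.0 CPM in ruxolitinib pools and 67.5, 71.96 and 83.7 CPM in controls. All 3 ruxolitinib pools are below all 3 controls (-0.65 ± 0.20), and the value is 1.22 relative to the CD8 T cell genes. It was not called without ruxolitinib pool 1 (-0.66) or 2 (-0.55) or without control pool 5 (-0.67).

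Of the 7 head genes, which contact the polymerase and its initiation factors, none was called higher and 2 were called lower, Med11 and Med20. The share called lower, 28.6%, is near the 25.3% of all genes, and the module median was -0.35. The 0 called higher stand beside 29.9% of all genes, and with 7 genes little can be read from this. Med11, whose product pairs with that of Med22 in the head, had 58.9 ± 8.99 CPM in controls and 22.5 ± 3.15 CPM in ruxolitinib pools (-1.39 ± 0.21, 2.62-fold lower). Med20, which pairs with Med18, had 19.9 ± 2.93 and 12.7 ± 1.48 CPM (-0.64 ± 0.23, and not called without ruxolitinib pool 1, 2 or 3 or control pool 5, at -0.63, -0.73, -0.56 and -0.68). Of the exonic bases of Med20, 28.4% are shared with other genes. Kpna2-ps, on the opposite strand, shares 21.4% and had 0 counts, and Gm20517, on the same strand, shares 7.0% and had 2 to 14 reads. Kpna2-ps lies wholly within exonic bases of Med20, and the handling of shared reads is not stated. Its 0 is therefore not a measure of its expression, nor of what the overlap does to the Med20 count. Med17, the central head subunit, overlapped between groups, at 30.0 ± 3.99 CPM in controls and 30.4 ± 1.13 CPM in ruxolitinib pools (0.02 ± 0.20). The remaining head genes Med6, Med8, Med18 and Med22 had values from -0.72 to 0.16, and of these Med8 and Med22 did not overlap between groups.

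In the middle module, 8 of 9 genes were tested, Med26 and Med19 were called higher, Med31 was called lower and 5 were not called. The shares, 25% higher and 12.5% lower, stand beside 29.9% and 25.3% of all genes tested. Med26, which recruits elongation factors to the polymerase, had 12.5, 14.3 and 13.7 CPM in ruxolitinib pools and 7.53, 5.95 and 2.93 CPM in controls (1.30 ± 0.35). The groups are well apart, and control pool 6 is the lowest library. Med19 had 26.6 ± 2.87 CPM in ruxolitinib pools and 14.8 ± 1.47 CPM in controls (0.84 ± 0.21). Zdhhc5, on the opposite strand, shares 11.9% of its exonic bases and was also higher (1.21 ± 0.18). Med31, a small subunit that binds Med7, had 7.46 ± 1.10 CPM against 15.9 ± 4.42 CPM in controls (-1.09 ± 0.28), was not called with gene length offsets, and shares 26.3% of its exonic bases with the near-silent 4930563E22Rik.

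Med1, the subunit that nuclear receptors bind, had 30.8, 28.6 and 28.8 CPM in ruxolitinib pools and 35.1, 34.9 and 34.8 CPM in controls. The controls are nearly equal and all lie above the ruxolitinib pools, yet the difference is small (-0.25 ± 0.18, not called), and it was called lower with gene length offsets (-0.65). Med4, Med7, Med9 and Med21 overlapped between groups, with values from -0.23 to 0.08.

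Med10, a conserved middle subunit, had 0 counts in all 6 libraries. A count of 0 allows up to 3 counts, or 0.169 to 0.217 CPM depending on the library's total. Of its exonic bases, 92.8% are shared with Gm26819, a non-coding gene on the opposite strand, which itself had 0 to 8 reads. The part of this overlap in the count was not tested, so the 0 is not a measure of Med10 expression.

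The tail module held calls in both directions, as did all genes tested. Of its 9 genes 3 were called lower (33.3%, against 25.3%) and 1 higher (11.1%, against 29.9%). Med27, Med28 and Med30, which animals have and which some schemes place in the head, were lower, and Med15, a subunit bound by many activators, was higher. Med30 had 33.2, 41.4 and 41.8 CPM in ruxolitinib pools and 106, 121 and 167 CPM in controls (-1.76 ± 0.23, 3.38-fold lower). Med28 had 51.9, 73.5 and 66.9 CPM against 173, 180.1 and 222 CPM (-1.58 ± 0.22, 2.99-fold lower). Med27 had 8.415, 10.2 and 12.6 CPM against 27.0, 28.3 and 26.9 CPM (-1.40 ± 0.23, 2.63-fold lower). In each of these genes every ruxolitinib pool lies under the level of every control, but relative to the CD8 T cell genes the values were 0.08, 0.28 and 0.43, well under the 1.95 of all genes. Per kilobase, Med30 was the most abundant Mediator transcript in both groups, at 111 and 32.8 CPM per kilobase, and Med27 went from place 10 in controls to place 29.

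Med15 had 70.2, 69.9 and 71.6 CPM in ruxolitinib pools, nearly equal, and a wider 42.6, 35.1 and 15.8 CPM in controls (1.18 ± 0.32). It was called in every setting but gene length offsets (0.62). Med16, Med23, Med24 and Med25 had values from 0.14 to 0.55 and Med29 one of -0.49 ± 0.47, none of them called. Of these 5 genes, Med16 and Med23 did not overlap between groups.

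Control pool 6 differed from control pools 4 and 5 in both directions, and this was not particular to the members. It was the lowest control for 13 of the 32 genes and the highest for 15, counts that have no share over all genes beside them. Its median ratio to the mean of control pools 4 and 5 was 1.05 (0.97 over all genes tested). In 5 genes the ratio was above 1.5 (15.6%, against 17.4% of the 13356 tested genes with a ratio): Cdk8 (1.79), Med7 (1.76), Med18 (1.74), Med12l (1.52) and Med31 (1.504). In 6 genes it was below 0.6 (18.8%, against 21.002%), so the shares were near those of all genes. The lowest ratio was in Med29 (0.27), followed by Med25 (0.38), Med15 (0.41), Med26 (0.43), Med4 (0.48) and Med16 (0.54), and the genes of both groups were named after their values were seen. Med25, for example, had 62.0 and 69.7 CPM in control pools 4 and 5 and 25.3 CPM in pool 6, against 65.6, 68.7 and 69.2 CPM in ruxolitinib pools. Across the 32 genes this ratio went down with the GC content of the transcript (Spearman's rho -0.64), and across 11800 tested genes above 1 CPM in controls rho was -0.31. These are descriptions across genes that share the same libraries. Without control pool 6, Med25 had a value of 0.03 in place of 0.37, Med26 0.99 in place of 1.30, Med15 0.85 in place of 1.18 and Med16 0.30 in place of 0.55. Med29 was then called lower (-0.90 in place of -0.49).

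**Figure D4:**
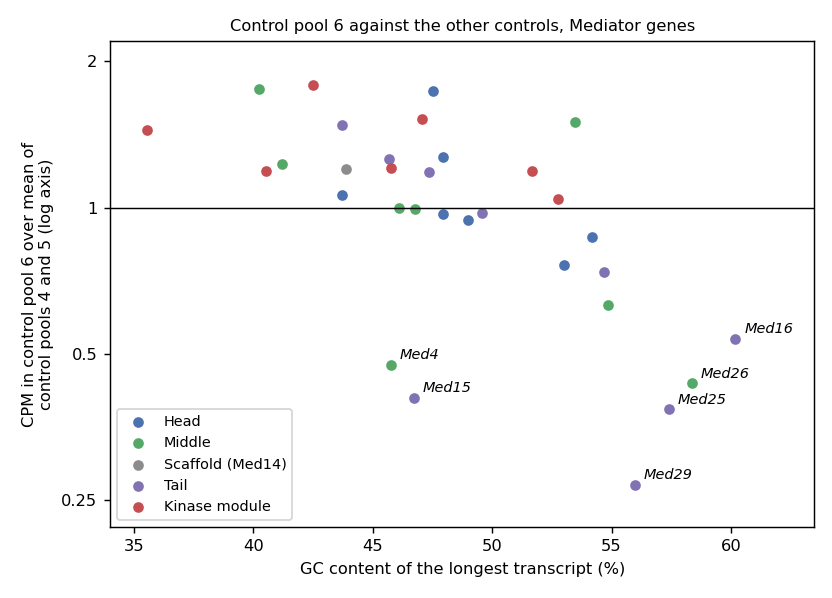
CPM in control pool 6 divided by the mean of control pools 4 and 5 (vertical, log axis) against the GC content of the longest transcript in percent (horizontal) for the 32 tested Mediator genes. The 6 labelled genes lie below 0.6 and 5 others above 1.5, and Med16, Med26, Med25 and Med29 among them are the 4 most GC-rich of the 32.

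As a share of all Mediator counts, which no scaling between libraries alters, the kinase module was larger in ruxolitinib pools. It took 28.6%, 23.9% and 23.9% of the summed CPM of the 33 genes in pools 1 to 3 and 10.6%, 10.6% and 13.8% in control pools 4 to 6. Med12 and Med13l carried most but not all of this: without them the other kinase module genes took 16.6%, 13.996% and 13.8% against 9.24%, 9.46% and 12.4%. These shares carry no offsets for gene length. With such offsets the log2 fold changes of Med13, Cdk8 and Cdk19 were 0.07, 0.02 and 0.15. Ccnc and Med12l were then at -0.83 and -1.09. The tail took the largest share in both groups, 38.2% ± 2.13 in ruxolitinib pools and 48.0% ± 1.38 in controls, and the head took 17.3% ± 1.23 and 21.3% ± 1.28 (SD, n = 3). The lower tail share does not describe each tail gene, as their median log2 fold change was 0.14. Med28 and Med30 had 191.8 and 131.3 of the mean tail sum of 547.3 CPM in controls. In ruxolitinib pools they had 64.1 and 38.8 of 388.2 CPM. For the middle module the shares were 14.3% ± 1.11 and 12.5% ± 0.92, with overlapping pools. The summed level of all 33 genes was 996 to 1043 CPM in ruxolitinib pools and 1125 to 1152 CPM in controls.

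**Figure D5:**
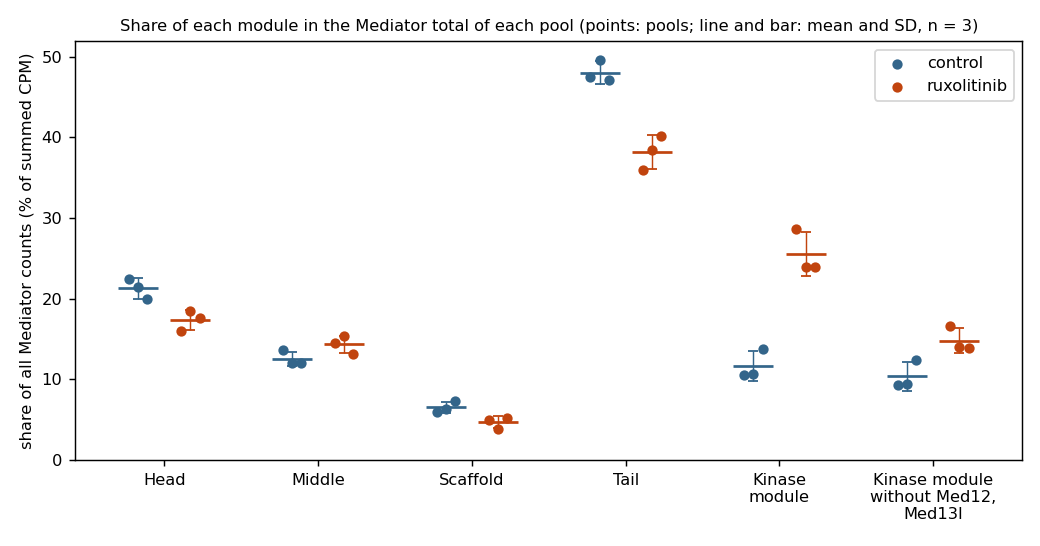
Share of each module in the summed CPM of the 33 Mediator genes, in percent, for each of the 6 pools as points with the mean and SD of each group (n = 3). The kinase module lies at 23.9% to 28.6% in ruxolitinib pools and 10.6% to 13.8% in controls. The summed tail shows the opposite order, although the median log2 fold change of its 9 genes was 0.14.

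Longer members tended to have higher values. Spearman's rho between deposited gene length and log2 fold change was 0.41 over the 32 genes and 0.26 over all 13480, given as a description across genes measured in the same libraries. Of the 6 members called higher, Med12, Med13, Med13l and Med15 have 7704 to 15427 bases and Med19 and Med26 have 2059 and 2997. The 8 called lower range from 1046 bases (Med11) to 8763 (Med14). With offsets for gene length Med12 was at 3.82 and Med13l at 1.66. GC content showed a weaker relation with the fold change, with a rho of 0.12 over the members and 0.02 over 13470 genes.

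The transcription machinery that Mediator works with gave its own pattern. Of the 12 subunits of RNA polymerase II, 9 were called lower and 1 higher (list median -1.32). The one that rose was Polr2a, the catalytic subunit with the tail that the Mediator kinase module and Cdk7 act on (0.64 ± 0.19), and the largest fall was in Polr2h (-1.91 ± 0.21). Of 18 general initiation factor genes, 11 were called lower and 0 higher (median -0.80), led by Ccnh, the cyclin of the TFIIH kinase (-1.48 ± 0.20). These counts stand beside 25.3% lower calls among all genes on the same TMM scale, and the lists were put together with earlier results of these data known.

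Other partner lists lay nearer to the median of all genes, and their calls are to be read beside 29.9% higher and 25.3% lower among all genes tested. Of 12 tested TFIID subunit genes, 1 was called higher (Taf6, 1.49 ± 0.50) and 3 lower, the largest fall being Taf13 (-1.33 ± 0.24). Of 17 elongation factor genes, 6 were called higher and 4 lower, with Ell2, a subunit of the super elongation complex, at 2.89 ± 0.34 and Cdk9, its kinase, at -1.02 ± 0.19. Cohesin and its loader, which bind Mediator at enhancers and promoters, had 3 of 10 genes called higher, a share like that of all genes, and 0 lower, with Mau2 highest (0.87 ± 0.23). Of 14 Integrator genes, Ints8 was called higher (0.87 ± 0.28), 2 were called lower, led by Ints5 (-0.90 ± 0.23), and 11 were not called. The list medians were -0.06 for TFIID, 0.01 for elongation, 0.03 for cohesin and -0.06 for Integrator, beside 0.03 for all genes.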

How the data were processed

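The authors deposited raw read counts per gene, whole numbers that were not normalised, for 6 libraries. HISAT2 2.0.5 and mm10 are named per the submitters' processing notes. Not given in the sources used here: the counting program, its strand setting and the annotation. The deposited gene length in bases is another column, whose measure is not stated. All 33 members have the same positions in GENCODE M21, from which exon overlaps and the GC content of each gene's longest transcript were computed. For members that share exonic bases with another gene, the deposited length matched their number of exonic bases in that release. RefSeq windows are from GRCm38.p6.

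The main test was edgeR 4.0.16's quasi-likelihood test (R 4.3.3) with TMM factors, the filterByExpr filter, robust glmQLFit and a model of group alone, over all 13480 genes kept, with Benjamini-Hochberg adjusted p under 0.05 as the call. The SE is the log2 fold change divided by the square root of F. The code was tested on simulated data. Alternatives were RLE and upper-quartile factors, other filters, DESeq2 1.42.0, limma-voom (limma 3.58.1), protein-coding genes alone, removal of globin genes, scaling to 18 CD8 T cell identity genes, offsets for gene length and, chosen after seeing the data, for GC content, and leaving out each pool. The members and lists were chosen with earlier results of these data known. Named in full were the kinase module, Med14, Med1 and the 3 largest and 3 smallest values. From each partner list the called genes with the largest rise and fall were named, with genes beside or overlapping members. Other called members and partner genes were named after their values were seen. Intervals for a count of 0 cover counting error only.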

Additional observations from a re-analysis of the deposited data

How the results depend on the processing

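The counts of members called, their median and the value of Med12 were recomputed under 17 alternatives. Scaling to the CD8 T cell identity genes gave 24 members higher and 0 lower, a median of 1.90 and 6.12 for Med12. It turned all 16 negative values positive, among them Ccnc (1.20), Med1 (1.68), Med11 (0.50), Med12l (1.10), Med14 (1.22), Med20 (1.285), Med27 (0.43), Med28 (0.28), Med30 (0.082) and Med31 (0.82). Gene length offsets put Med12 at 3.82 and called 4 members higher and 8 lower. Leaving out 1 pool gave 5 to 8 members lower, 5 to 8 higher, a median of -0.14 to 0.045 and 4.10 to 4.33 for Med12. Under the other 9 alternatives with all pools the members called were 6 or 7 higher and 7 or 8 lower, and the 6 called higher by edgeR were called in each. No paired analysis was possible because the pools of the groups share no numbers. Med12l and the control level of Med12 rest on few reads.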
